A study of Mus musculus with 10 samples.

Results

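Interferon-stimulated genes are the genes that cells switch on when interferon binds its receptor. A set of 47 genes, such genes and the 2 chains of the receptor itself, was followed by symbol in the deposited table of 22186 genes. Each of the 47 had a row. They comprised 24 antiviral effectors, 4 sensors of nucleic acid, 4 transcription factors of the STAT and IRF families, 6 interferon-induced GTPases, 7 enzymes that add or remove ubiquitin, ISG15 or ADP-ribose, and the 2 chains of the type I interferon receptor. RAW264.7 is a mouse line of macrophage character from a tumour raised with a leukaemia virus, labelled wild type, and all cultures grew in minimum essential medium with fetal bovine serum and antibiotics. The doxorubicin group had 5 libraries of cells kept for 24 h in medium with doxorubicin, an anthracycline drug that poisons topoisomerase II and breaks DNA, and the medium group had 5 libraries of cells in medium without it. The dose is uncertain, since sample titles give 10 nM, the design gives 100 nM, and the dilution described in the protocol comes to 1000 nM. The drug was dissolved in dimethyl sulfoxide, and the labels do not say that the medium cultures received that solvent. Nor do they say that the libraries of a group are separate cultures, so p-values measure the spread between these libraries only.

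In mammals, type I interferon binds a receptor made of IFNAR1 and IFNAR2, whose kinases phosphorylate STAT proteins, STAT2 among them. With IRF9 these form a complex called ISGF3, which binds a DNA element with repeated GAAA, the interferon-stimulated response element (ISRE), and raises transcription of effectors, sensors and further factors such as IRF7. Interferon gamma acts mainly through another element, the gamma-activated site (GAS). Macrophages carry a low level of this activity without infection, and cytosolic DNA or viral RNA can raise it.

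Values were FPKM, a level per transcript length and per library, so levels of different genes can be set beside each other. FPKM summed to between 338293 and 356111 per library, 8207 to 9125 genes were listed at 0, and the number of reads was unknown. The macrophage markers Cd68, Lyz2 and Tyrobp lay between 372 and 667 FPKM in every library, while Mertk and Cx3cr1 lay at or below 1.02 FPKM. Summed markers of lymphocytes were 0.0859 to 0.397 FPKM with doxorubicin and 0 to 0.175 FPKM in medium, and those of conventional dendritic cells 0.547 to 0.709 FPKM and 0.603 to 0.859 FPKM. Of the markers of plasmacytoid dendritic cells, which make much interferon in animals, Cox6a2 alone passed 1 FPKM (0.767 to 3.27 FPKM with doxorubicin and 1.91 to 12.9 FPKM in medium), while Siglech was at most 0.0116 FPKM and Klk1 was listed at 0. Of the macrophage markers tested, 0 of 10 passed the threshold on group only and 3 rose with the replicate block described below (Lyz2, Itgam and Laptm5). Over all genes tested, 0.689% rose on group only and 7.81% with the block. Summed macrophage markers were 2561 to 2904 FPKM with doxorubicin and 2412 to 2779 FPKM in medium. Cox6a2 fell with the block (-1.29, limma adjusted p = 0.00368), and Zbtb46, a marker of conventional dendritic cells, fell in the fit with no filter on low values (-0.20, adjusted p = 0.0482), with 0.412 to 0.527 FPKM with doxorubicin and 0.591 to 0.763 FPKM in medium. The part of these markers in the results was not tested. The number 1 library of each group differed from the other 4 of its group. Their correlation with libraries of numbers 2 to 5 was 0.937 to 0.982 (log2 scale, over genes), against 0.976 to 0.998 among numbers 2 to 5. Values without the number 1 libraries are therefore given for the main counts and medians, and for some of the genes whose call they change. Without them, 1 of the 10 macrophage markers rose on group only and 5 with the block, and 0 fell. Of all genes, 2.87% and 10.2% rose in those fits.

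Of the 47 genes, 35 averaged 1 FPKM or more across all libraries and entered a limma fit on log2(FPKM + 1) over 9869 such genes. A further 11 lay below that level and Zbp1 was listed at 0 in every library. With doxorubicin as the only term, 2 of the 35 rose at an adjusted p of 0.05, the antiviral effectors Lgals3bp and Cmpk2, and 0 fell, where 0.689% of all genes tested rose and 0.223% fell. At an unadjusted p under 0.05, 10 of the 35 were higher and 0 lower, where 653 of the 9869 genes tested were higher and 1104 lower. An exact permutation test, whose smallest possible unadjusted p is 0.00794, called 0 genes, and the smallest adjusted p it gave was 0.118. With the replicate number as a block, which compares libraries of the same number, 14 of the 35 (40%) rose and 0 fell, where 7.81% of all genes rose and 13.7% fell. The 35 genes had a median log2 fold change of 0.27, against -0.03 over all genes tested, and 30 of them (85.7%) had a positive value, against 43.2% of all genes. The members, roles and gene lists were chosen with earlier results of these data known. Their shares beside those of all genes, here and below, are therefore descriptions and not an independent comparison.

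Without both number 1 libraries the members' median was 0.20, against -0.04 over all genes. With single libraries left out it ran from 0.08 without medium 1 to 0.37 without doxorubicin 1. Without both number 1 libraries 8 members rose and 0 fell, where 2.87% of all genes rose and 2.77% fell. With the block added, 17 rose (the 14, Rtp4, Sp100 and Usp18) and 1, Irf9, fell, where 10.2% of all genes rose and 18.4% fell. Of the 14, 5 (Oasl1, Rsad2, Cmpk2, Lgals3bp and Irgm1) stayed past the threshold whichever number was left out, and the other 9 lost it in at least 1 of the 5 fits. Igtp, Oas3 and Ifitm3 kept it in 3 of the 5. Isg15, Ifi35, Dhx58, Eif2ak2, Irf7 and Trim25 kept it in 2, those without number 1 and without number 2.

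**Figure D1:**
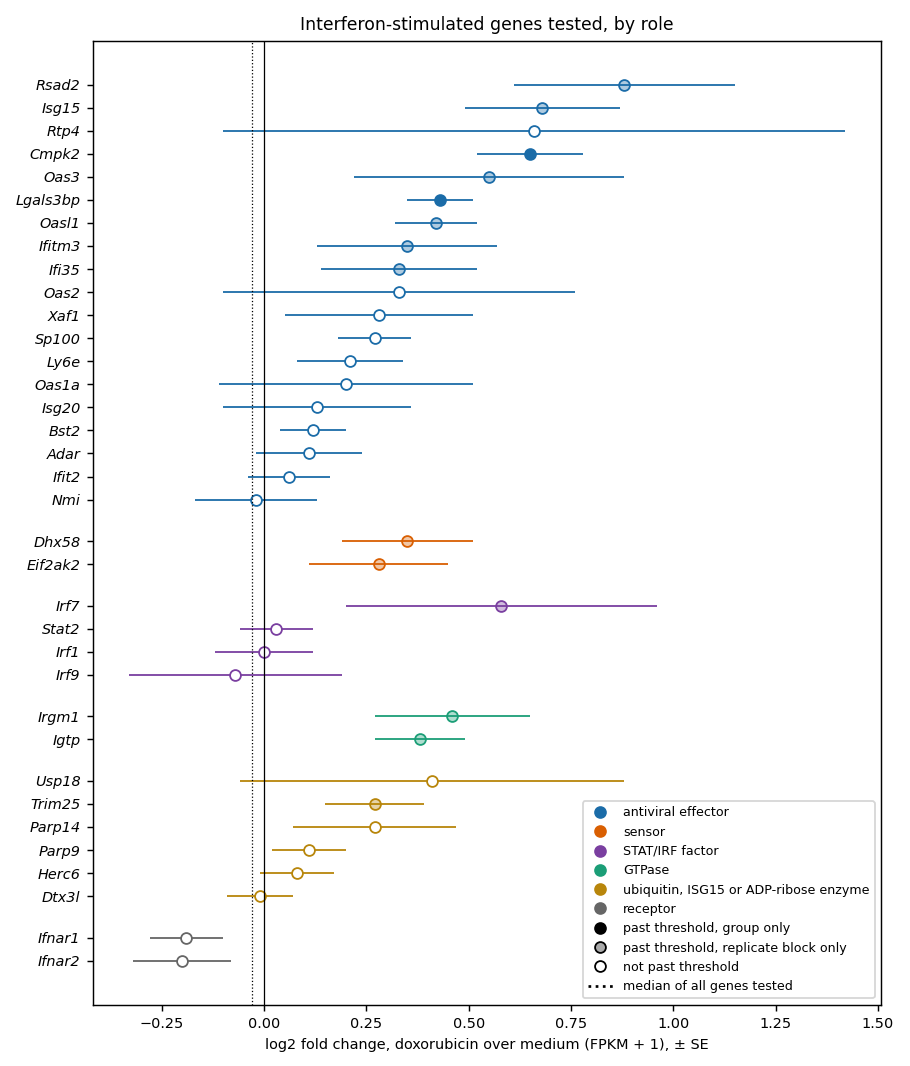
Log2 fold change of FPKM + 1, doxorubicin over medium, with its standard error from the fit on group only, for the 35 members tested, ordered within roles; full points passed the threshold on group only, pale points with the replicate block only, and the dotted line is the median of all genes at -0.03. Antiviral effectors reach from -0.02 to 0.88, and both receptor chains lie below 0.

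The medians by role are descriptions with no test. As these are bulk libraries, a change in the share of cells that express a gene and a change in RNA per cell cannot be told apart. The 19 antiviral effectors tested had a median log2 fold change of 0.33. Of them 2 rose on group only and 8 with the block, where 0.689% and 7.81% of all genes rose. Both sensors tested rose with the block (median 0.32), as did both GTPases tested (median 0.42). Of the 6 modifying enzymes 1 rose with the block (median 0.19), and of the 4 STAT and IRF factors 1 did (median 0.02). The 2 to 6 genes tested in each of these 4 roles are too few to set against the 7.81%. The 2 receptor chains had a median of -0.19 and neither passed the threshold. Without number 1 these medians were 0.24 for effectors, 0.25 for sensors, 0.36 for GTPases, 0.15 for modifying enzymes, 0.02 for the factors and -0.13 for the receptor chains.

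Promoter sequence was not used in the choice of genes. RefSeq promoters (mouse, GRCm38.p6, 250 bases before to 50 bases after the start) were given for 39 of the 47 members and were searched on both strands for the ISRE core, that is GAAA, 2 free bases and GAAA. The core lay in a promoter of 18 of the 39 members (46.2%), against 3.99% of 27025 genes with a promoter and 3.44% of all 32851 promoters of this length. The GAS core, TTC, 3 free bases and GAA, lay in 13 members (33.3%), against 9.55% of genes. The 200 bases before the start are shown for members that rose with the block and held an ISRE core there, the first 5 by adjusted p, with the cores in capitals on whichever strand they lie (a core on the other strand reads TTTC, 2 bases, TTTC). Irgm1 is on chr11:48871421-48871620, minus strand, Rsad2 on chr12:26456453-26456652, minus strand, Igtp on chr11:58199356-58199555, plus strand, Oas3 on chr5:120777660-120777859, minus strand, and Isg15 on chr4:156200819-156201018, minus strand.
Irgm1: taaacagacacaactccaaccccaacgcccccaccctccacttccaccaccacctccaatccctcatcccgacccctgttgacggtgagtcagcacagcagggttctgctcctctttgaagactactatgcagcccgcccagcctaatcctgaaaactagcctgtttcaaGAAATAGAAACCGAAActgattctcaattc
Rsad2: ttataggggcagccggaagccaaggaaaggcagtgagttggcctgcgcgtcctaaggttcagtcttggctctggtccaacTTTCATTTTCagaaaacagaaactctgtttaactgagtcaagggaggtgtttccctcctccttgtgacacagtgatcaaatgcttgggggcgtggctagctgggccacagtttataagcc
Igtp: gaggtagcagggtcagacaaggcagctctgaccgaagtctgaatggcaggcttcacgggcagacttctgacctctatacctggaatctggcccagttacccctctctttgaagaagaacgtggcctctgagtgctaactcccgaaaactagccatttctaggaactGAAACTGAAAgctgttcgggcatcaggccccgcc
Oas3: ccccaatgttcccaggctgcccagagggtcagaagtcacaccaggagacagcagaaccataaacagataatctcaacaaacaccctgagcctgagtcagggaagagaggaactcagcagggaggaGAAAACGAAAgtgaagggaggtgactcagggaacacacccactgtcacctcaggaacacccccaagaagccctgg
Isg15: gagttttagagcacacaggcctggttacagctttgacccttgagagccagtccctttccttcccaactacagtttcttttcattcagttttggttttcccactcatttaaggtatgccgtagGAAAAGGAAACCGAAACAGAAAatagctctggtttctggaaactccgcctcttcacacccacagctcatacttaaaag
Isg15 held 3 overlapping cores, whose first bases lay from -78 to -66 relative to the start. Irgm1 held 2 overlapping cores at -30 and -24, Igtp 1 at -34, Oas3 1 at -75 and Rsad2 1 at -120. Ifitm3 also rose with the block and held 2 cores, both after the start, and Eif2ak2, the last of the 7 such members by adjusted p, held 1 and is not shown.

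Promoters of Ifit1 (chr19:34640689-34640888, plus strand) and Ifit3 (chr19:34583329-34583528, plus strand), chosen after their values were seen, are shown because the group means of these genes, which lay under the filter, differed 3.75-fold and 3.58-fold.
Ifit1: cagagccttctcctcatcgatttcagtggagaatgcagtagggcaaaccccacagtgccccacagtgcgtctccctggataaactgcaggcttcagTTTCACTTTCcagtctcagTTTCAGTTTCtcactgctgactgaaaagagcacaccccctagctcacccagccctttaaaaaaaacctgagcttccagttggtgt
Ifit3: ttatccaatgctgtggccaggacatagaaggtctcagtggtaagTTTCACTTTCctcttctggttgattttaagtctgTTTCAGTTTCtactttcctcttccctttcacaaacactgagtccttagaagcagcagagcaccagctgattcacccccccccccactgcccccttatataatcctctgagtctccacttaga
Each held 2 separate cores on the other strand, at -104 and -85 in Ifit1 and at -156 and -122 in Ifit3. Among the members tested, 10 with an ISRE core had a median log2 fold change of 0.36 and 18 without it a median of 0.12. Of those 10, 7 rose with the block, against 6 of the 18. Without the number 1 libraries the medians were 0.29 and 0.11. The groups overlapped, from 0.03 to 0.88 with the core and from -0.20 to 0.65 without it. The 18 included both receptor chains, Ifnar1 (-0.19) and Ifnar2 (-0.20). The 11 members below the filter, of which 8 held the core, were not part of this split. Cmpk2, Oasl1, Lgals3bp and Irf7 rose with the block with no such letters in their window. A GAS core lay in 4 of the 13 members that rose with the block and had a promoter, and in 8 of the 15 that did not rise.

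**Figure D2:**
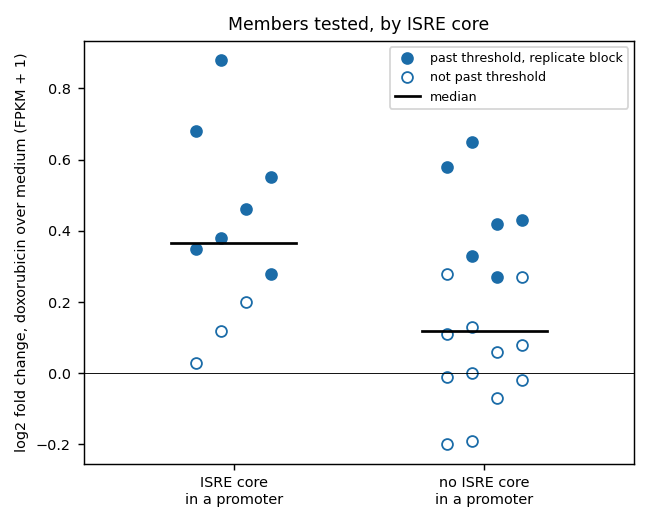
Log2 fold change of FPKM + 1, doxorubicin over medium, for the 28 members that were tested and have a promoter in the table, split by the presence of the ISRE core; each point is a gene, full points rose with the replicate block, and lines are medians (0.36 with the core and 0.12 without). The points of both sets overlap.

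Lgals3bp encodes a secreted glycoprotein that binds galectins. In doxorubicin libraries 1 to 5 it had 34.0, 24.8, 26.2, 27.5 and 29.6 FPKM, against 21.8, 20, 19.5, 21.5 and 20.4 FPKM in medium libraries 1 to 5. The groups did not overlap and doxorubicin 1 was the highest. It rose by a log2 fold change of 0.43 (SE 0.08, limma adjusted p = 0.0402; 0.00347 with the block). The call without the block held without medium 1 (0.0330) and without doxorubicin 2 (0.0414), and was lost on leaving out any of the other 8 libraries (0.0588 to 0.120).

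Cmpk2, a mitochondrial nucleotide kinase gene, and Rsad2, the gene of viperin, which makes a chain-terminating nucleotide, are neighbours in the mouse genome (RefSeq, GRCm38.p6). Cmpk2 levels with doxorubicin were 2.43, 1.82, 2.70, 2.34 and 2.19 FPKM, against 0.508, 1.32, 1.34, 1.32 and 1.15 FPKM in medium. Every doxorubicin library exceeded every medium library, and medium 1 was the lowest. The log2 fold change was 0.65 (SE 0.13, limma adjusted p = 0.0480; 0.00914 with the block), or 2.04-fold on group means. Without the block that call was lost on leaving out any library other than medium 1 (0.0612 to 0.125, and 0.0154 without medium 1). Rsad2 had 8.14, 1.66, 2.74, 2.38 and 2.85 FPKM with doxorubicin, against 1.70, 1.02, 1.18, 1.09 and 1.24 FPKM in medium. Doxorubicin 1 was far above the rest, and the groups overlapped only through doxorubicin 2 and medium 1. Rsad2 had the largest fold change of the members tested, 0.88 (SE 0.27, adjusted p = 0.138), rose with the block (SE 0.17, limma adjusted p = 0.0107), and reached 0.66 without the number 1 libraries (adjusted p = 0.0152).

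Isg15 encodes a ubiquitin-like protein that is attached to other proteins or secreted. It had 3.89, 2.60, 4.42, 3.63 and 3.50 FPKM with doxorubicin, against 0.717, 2.04, 2.44, 2.31 and 2.14 FPKM in medium. The groups did not overlap, and medium 1 was the lowest. Its log2 fold change was 0.68 (SE 0.19, adjusted p = 0.114), and it rose with the block (SE 0.16, limma adjusted p = 0.0203) and without number 1 (0.48, adjusted p = 0.0432). Leaving out number 5 in the block fit gave an adjusted p of 0.0586.

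The 2-5A synthetase family makes short oligoadenylates that activate RNase L, and Oasl1 is a relative that in mice represses translation of Irf7. Oasl1 had 26.0, 25.6, 28.5, 24.6 and 25.9 FPKM with doxorubicin, against 15.2, 21.7, 22.8, 19.2 and 18.5 FPKM in medium, with no overlap. It rose with the block (0.42, SE 0.07, limma adjusted p = 0.00871; 0.0894 without the block), and without number 1 it rose on group only (0.34, adjusted p = 0.0361). Oas3 had 7.34, 13.8, 15.6, 13.2 and 13.9 FPKM with doxorubicin, against 2.57, 11.5, 11.4, 9.81 and 9.77 FPKM in medium. Number 1 was low in both groups, and within every number the doxorubicin library was the higher. Oas3 rose with the block (0.55, SE 0.13, limma adjusted p = 0.0198; 0.416 without the block; 0.0227 without number 1 and without the block). Oas2, its neighbour, averaged 4.93 ± 1.81 FPKM with doxorubicin and 4.12 ± 2.24 FPKM in medium (SD, n = 5 each), and Oas1a 21.7 ± 5.43 FPKM and 19.6 ± 6.97 FPKM. Neither passed the threshold in either fit. Their log2 fold changes, 0.33 for Oas2 and 0.20 for Oas1a, were 0.15 and 0.07 without both number 1 libraries. They were 0.58 and 0.37 without doxorubicin 1 alone and -0.09 and -0.10 without medium 1 alone. Oas1a has near-identical copies in mice, so its reads may have been shared among them.

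Ifitm3 encodes a membrane protein that hinders fusion of viruses in endosomes. It had 30.3, 51.4, 48.1, 39.0 and 43.3 FPKM with doxorubicin, against 17.7, 40.5, 41.0, 34.7 and 35.8 FPKM in medium. The groups overlapped, with number 1 the lowest in each, and all 5 within-number differences were positive. Ifitm3 rose with the block only (0.35, SE 0.08, limma adjusted p = 0.0210; 0.444 without it). Ifi35, which encodes a partner of Nmi, had 12.9, 15.9, 18.5, 16.0 and 16.7 FPKM with doxorubicin, against 7.03, 15.4, 16.2, 13.4 and 12.5 FPKM in medium. It too rose with the block only (0.33, SE 0.10, limma adjusted p = 0.0453; 0.384 without it), with a difference of 0.04 in number 2. Without number 1, Ifi35 stood at 0.21 and Ifitm3 at 0.25, both past the threshold with the block (adjusted p = 0.0263 and 0.00393). With the block, leaving out a number took the adjusted p as high as 0.0635 for Ifitm3, 0.0619 for Oas3 and 0.131 for Ifi35, each without number 5.

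Bst2, the gene of tetherin, which holds budding virus at the cell surface, had the highest mean level of all 47 genes. Its levels with doxorubicin were 174, 147, 152, 160 and 172 FPKM, against 143, 135, 139, 165 and 160 FPKM in medium. The groups overlapped, and its log2 fold change of 0.12 (SE 0.08, limma adjusted p = 0.456; 0.130 with the block) did not pass the threshold. Ly6e, another abundant surface protein gene, averaged 90.0 ± 7.93 FPKM with doxorubicin and 78.8 ± 14.2 FPKM in medium (0.21, adjusted p = 0.432; 0.0597 with the block). The remaining tested effectors, Isg20, Ifit2, Rtp4, Xaf1, Adar, Nmi and Sp100, had log2 fold changes from -0.02 (Nmi) to 0.66 (Rtp4), with none past the threshold in either fit. The value of Rtp4 rested on medium 1, where it had 0.144 FPKM against 14.9 to 17.9 FPKM in medium 2 to 5. Without that library it was -0.13 (adjusted p = 0.856), whereas without both number 1 libraries it was 0.27, past the threshold with the block (limma adjusted p = 0.0126).

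**Figure D3:**
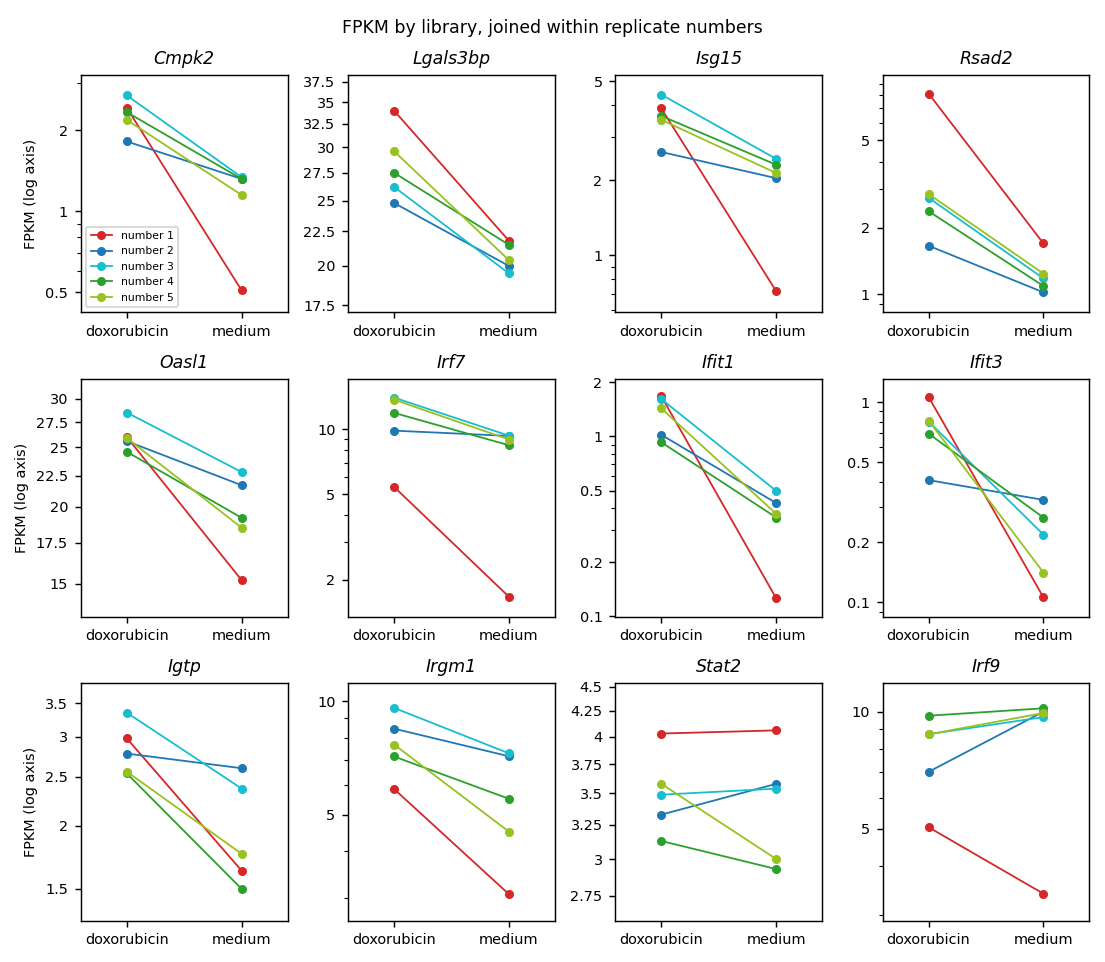
FPKM on log axes for 12 members, with a line joining the doxorubicin and the medium library of each replicate number (colours). Lgals3bp, Cmpk2, Isg15 and Oasl1 show no overlap of groups, Irf9 falls from left to right in number 1 only, and number 1 (red) has the steepest line for Isg15 and Rsad2.

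Both tested sensors rose with the block. Dhx58 encodes LGP2, a regulator of RIG-I-like receptors, and had 3.01, 3.35, 4.49, 4.66 and 4.92 FPKM with doxorubicin, against 1.72, 3.56, 3.56, 3.16 and 3.0 FPKM in medium. Numbers 1, 3, 4 and 5 were higher with doxorubicin and number 2 was lower (0.35, SE 0.10, limma adjusted p = 0.0333; 0.280 without the block). Eif2ak2 encodes PKR, a kinase that halts translation on binding double-stranded RNA, and had 11.5, 14.7, 16.7, 15.8 and 16.2 FPKM with doxorubicin, against 7.31, 14.8, 13.7, 13.2 and 13.0 FPKM in medium. The groups overlapped, with medium 1 the lowest (0.28, SE 0.08, limma adjusted p = 0.0371; 0.418 without the block). Without number 5 neither passed with the block (0.118 for Dhx58 and 0.109 for Eif2ak2). Ifih1, the gene of the RNA sensor MDA5, lay below the filter with means of 0.619 ± 0.172 FPKM with doxorubicin and 0.506 ± 0.160 FPKM in medium. Zbp1, the gene of a sensor of Z-form nucleic acid, was listed at 0 in all 10 libraries.

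Of the transcription factors, Irf7 rose with the block and the others did not. Irf7, which amplifies interferon transcription, had 5.40, 9.84, 14.0, 11.9 and 13.7 FPKM with doxorubicin, against 1.67, 9.30, 9.33, 8.42 and 8.95 FPKM in medium. Number 1 was lowest in both groups, and each doxorubicin library exceeded the medium library of its number (0.58, SE 0.14, limma adjusted p = 0.0233; 0.460 without the block). Without number 1 it was 0.41 (adjusted p = 0.0462 without the block), and without number 5 the block gave 0.0739.

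The ISGF3 subunits Stat2 and Irf9 did not rise. Stat2 had 4.03, 3.33, 3.49, 3.13 and 3.58 FPKM with doxorubicin, against 4.06, 3.58, 3.54, 2.93 and 3.0 FPKM in medium (0.03, SE 0.09, limma adjusted p = 0.890). Irf9 had 5.04, 7.0, 8.75, 9.76 and 8.74 FPKM with doxorubicin, against 3.40, 10.0, 9.68, 10.2 and 9.92 FPKM in medium. Number 1 was the only number in which Irf9 was higher with doxorubicin. Its log2 fold change was -0.07 over all libraries (SE 0.26, adjusted p = 0.922), and without number 1 it fell by 0.21, past the threshold with the block (limma adjusted p = 0.0489) and not without it (0.157). Irf1, an early interferon gamma target and activator, had 8.90, 5.37, 6.51, 6.39 and 6.63 FPKM with doxorubicin, against 8.46, 5.89, 6.55, 6.39 and 6.24 FPKM in medium. The Irf1 groups overlapped throughout, with number 1 highest in each (0.00, SE 0.12, adjusted p = 0.990).

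The GTPases tested, Irgm1 and Igtp, belong to a family that marks and disrupts vacuoles holding microbes. Irgm1 had 5.85, 8.45, 9.59, 7.13 and 7.67 FPKM with doxorubicin, against 3.08, 7.14, 7.27, 5.51 and 4.51 FPKM in medium. Igtp had 2.98, 2.78, 3.35, 2.54 and 2.56 FPKM with doxorubicin, against 1.63, 2.60, 2.37, 1.5 and 1.76 FPKM in medium. For both genes the groups overlapped, and all 5 numbers were higher with doxorubicin. Irgm1 rose with the block (0.46, SE 0.08, limma adjusted p = 0.0100; 0.247 without it), and so did Igtp (0.38, SE 0.08, limma adjusted p = 0.0151; 0.131 without it). Igtp reached 0.0635 in the block fit without number 4.

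Trim25, an E3 ligase gene for ubiquitin and ISG15 that acts on RIG-I, was the most abundant modifying enzyme of the set. It had 64.1, 41.3, 45.2, 41.1 and 41.5 FPKM with doxorubicin, against 44.6, 36.9, 36.5, 35.9 and 35.9 FPKM in medium. Number 1 was the highest in each group, opposite to most members, and medium 1 alone overlapped the doxorubicin range. Trim25 rose with the block (0.27, SE 0.06, limma adjusted p = 0.0169; 0.277 without it), and without number 1 also when the block was left out (0.21, adjusted p = 0.0274). Leaving out number 5 gave 0.0558 with the block. Usp18, the gene of the protease that removes ISG15, averaged 4.18 ± 2.10 FPKM with doxorubicin and 3.18 ± 2.02 FPKM in medium (0.41, adjusted p = 0.700; 0.0560 with the block). Doxorubicin 1 was at 1.24 FPKM and medium 1 at 0.0973 FPKM. Without medium 1 alone the log2 fold change was -0.02, and without both it was 0.25, past the threshold with the block (limma adjusted p = 0.0385) and not without it (0.490). Parp14, Dtx3l and Parp9, which lie side by side and act in ADP-ribosylation and ubiquitylation, had log2 fold changes of 0.27, -0.01 and 0.11, none past the threshold in either fit. Herc6, in mice a ligase for ISG15, was at 0.08.

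The receptor chains were lower with doxorubicin on average without passing the threshold. Ifnar1 had 15.9, 13.6, 15.8, 16.2 and 16.4 FPKM with doxorubicin, against 21.8, 16.4, 16.4, 17.5 and 17.6 FPKM in medium. It was lower in all 5 numbers, and the groups met at the highest doxorubicin and the lowest medium values (-0.19, SE 0.09, limma adjusted p = 0.292; 0.0682 with the block). Ifnar2 had 32.5, 30.9, 32.6, 31.9 and 35.3 FPKM with doxorubicin, against 44.1, 28.1, 36.3, 36.7 and 45.4 FPKM in medium. Ifnar2 was lower in 4 of 5 numbers (-0.20, SE 0.12, limma adjusted p = 0.391; 0.0953 with the block), and it fell with the block when number 2 was left out (-0.28, adjusted p = 0.0302).

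Members below 1 FPKM were examined in a fit over all 15731 genes above 0 in some library. On group only, 3 of the 46 members in it rose (Ifit1, Ifit3 and Ifit3b) and 0 fell, where 0.432% of those genes rose and 0.153% fell. Lgals3bp and Cmpk2 then missed the threshold (adjusted p = 0.0534 and 0.0735). With the block 8 rose (Ifit1, Ifit3b, Oasl1, Cmpk2, Lgals3bp, Gbp2, Gbp3 and Gbp7) and 0 fell, where 2.66% of genes rose and 4.16% fell. Of the 14 members that rose with the block among filtered genes, 11 missed the threshold here, Rsad2 (0.0615) and Irgm1 (0.0503) among them. The IFIT proteins bind viral RNA that lacks the host cap. Ifit1 had 1.67, 1.02, 1.61, 0.927 and 1.43 FPKM with doxorubicin, against 0.126, 0.426, 0.498, 0.354 and 0.371 FPKM in medium. The lowest doxorubicin value was above the highest medium value (0.78, SE 0.11, limma adjusted p = 0.0317; 0.0312 with the block), and the group means differed 3.75-fold. Ifit3 had 1.06, 0.408, 0.80, 0.696 and 0.809 FPKM with doxorubicin, against 0.106, 0.325, 0.218, 0.265 and 0.141 FPKM in medium. It also showed no overlap (0.53, SE 0.09, limma adjusted p = 0.050, below the threshold before rounding; 0.0576 with the block), with a 3.58-fold difference of means.

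Ifit3b had 0.366, 0.156, 0.338, 0.237 and 0.222 FPKM with doxorubicin, against 0.0298, 0.0374, 0.0781, 0.0315 and 0 FPKM in medium. Ifit3b is a near-identical copy of Ifit3, so how reads were divided between them is uncertain (0.29, SE 0.04, limma adjusted p = 0.0373; 0.0233 with the block). Without the block, the calls of these IFIT genes were lost with most single libraries left out, while log2 fold changes stayed at 0.71 to 0.84 for Ifit1, 0.47 to 0.60 for Ifit3 and 0.26 to 0.32 for Ifit3b. Ifit1 lost its call on leaving out any library other than medium 1 and doxorubicin 2 (0.0510 to 0.107), and Ifit3b did in the same 8 fits (0.0510 to 0.114). Ifit3 lost it on leaving out any library other than doxorubicin 2 (0.0649 to 0.145). Without both number 1 libraries Ifit3 also missed the threshold (0.43, limma adjusted p = 0.0516; 0.0938 with the block). Ifit1 and Ifit3b passed there (adjusted p = 0.0272 and 0.0374, and 0.0375 for each with the block). Ifit2, a neighbour of Ifit3, was not higher, with 2.01 ± 0.301 FPKM with doxorubicin and 1.89 ± 0.297 FPKM in medium (0.06, adjusted p = 0.796).

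The guanylate-binding proteins coat vacuoles and free bacteria. Gbp2 had 0.366, 0.359, 0.550, 0.596 and 0.502 FPKM with doxorubicin, against 0.117, 0.109, 0.253, 0.273 and 0.105 FPKM in medium. Its groups did not overlap, and it rose with the block only (0.33, SE 0.03, limma adjusted p = 0.0118; 0.0554 without it). Gbp3 averaged 0.700 ± 0.217 FPKM with doxorubicin and 0.343 ± 0.196 FPKM in medium, and its neighbour Gbp7 0.674 ± 0.242 FPKM and 0.385 ± 0.193 FPKM. Both rose with the block only (limma adjusted p = 0.0176 and 0.0428). The GBP genes are similar in sequence, so their reads may have been shared. Ifi44, Oasl2, Ifi47 and Trim30a, also below the filter, did not pass in either fit.

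Counted without any model, the 5 doxorubicin libraries lay above the 5 medium libraries for 4 of the 35 members tested (Isg15, Oasl1, Cmpk2 and Lgals3bp) and below for 0, where 2.73% of genes tested lay above and 3.97% below. Over the 46 members above 0 the count was 8 above (with Ifit1, Ifit3, Ifit3b and Gbp2) and 0 below, where 2.32% and 2.61% of such genes did so. Within all 5 replicate numbers, 16 of the 35 members were higher with doxorubicin and 1, Ifnar1, was lower, where 13.2% of genes tested were higher and 23.1% lower.

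The replicate numbers differed in how far the members moved. In number 1, 31 of the 35 were higher with doxorubicin, where 52.0% of all genes tested were. The members' median difference there was 0.59 on the log2 scale, against 0.02 over all genes. Number 2 had 19 higher and a median of 0.03, where 29.5% of all genes were higher, with a median of -0.07. The medians of numbers 3, 4 and 5 lay between these, at 0.23, 0.24 and 0.29 (all genes 0.00, -0.03 and -0.03). In them 27, 28 and 32 members were higher, where 51.0%, 42.7% and 42.8% of all genes were. Number 2 thus gave almost no median difference, although Rsad2 (0.39), Ifitm3 (0.34), Lgals3bp (0.29) and Cmpk2 (0.28) were higher there too.

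**Figure D4:**
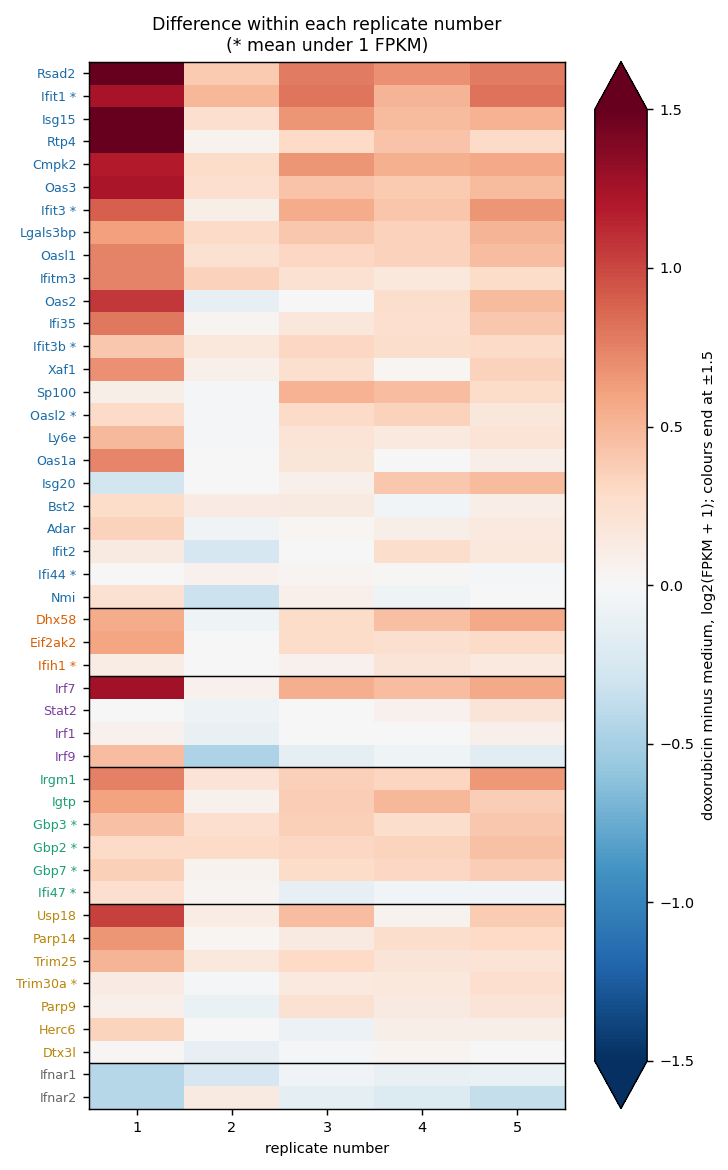
Difference in log2(FPKM + 1), doxorubicin minus medium, within each replicate number for the 46 members above 0, grouped by role and ordered within roles by their mean; asterisks mark members below 1 FPKM, and colours end at 1.5. Number 1 has the strongest colours and number 2 the palest, and Rsad2, Ifit1 and Isg15 are higher in every number.

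The number 1 libraries differed from the others in members of both directions. Medium 1 lay below all of medium 2 to 5 for 23 of the 35 members and above them for 8, with a median deviation of -0.61 on the log2 scale, while over all genes 48.6% lay below and 30.4% above with a median of -0.10. Doxorubicin 1 lay below doxorubicin 2 to 5 for 18 members and above for 7 (median -0.26), while over all genes 42.3% lay below and 29.1% above (median -0.05). Rtp4, Oas2, Usp18, Irf7 and Oas3 were low in both libraries and Trim25 and Irf1 high in both. Rsad2 was high in doxorubicin 1, and Isg15 and Cmpk2 were low in medium 1 while lying among doxorubicin 2 to 5 in doxorubicin 1. The part of these deviations in the doxorubicin differences was not tested beyond the fits without number 1.

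**Figure D5:**
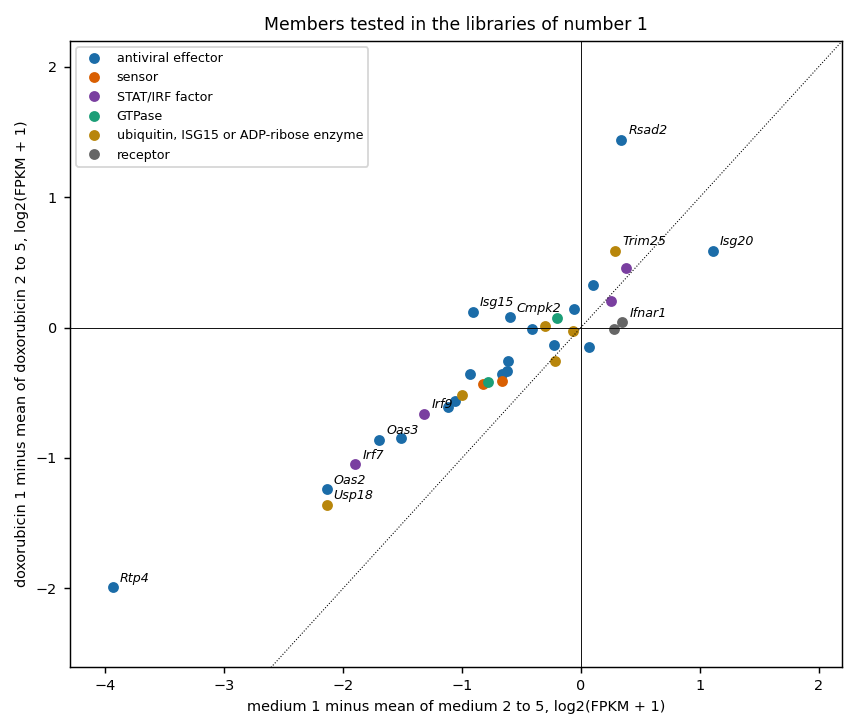
Deviation of doxorubicin 1 from the mean of doxorubicin 2 to 5 (vertical) against that of medium 1 from the mean of medium 2 to 5 (horizontal), in log2(FPKM + 1), for the 35 members tested, coloured by role; the dotted diagonal marks equal deviations. Most members lie above the diagonal, and Rtp4, Usp18, Oas2 and Irf7 are low in both libraries.

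Genes around the set in the pathway were counted from lists. Of 21 interferon ligand genes, 0 reached the filter and 19 were listed at 0 in every library. Ifnb1, the gene of interferon beta, was at 0.0646 FPKM in doxorubicin 2, 0.199 FPKM in doxorubicin 4 and 0 in the other doxorubicin libraries and in all 5 medium libraries. Of 16 receptor signalling genes tested, 0 passed on group only, and with the block 0 rose and 2 fell, the phosphatase genes Ptpn6 (-0.27, limma adjusted p = 0.00714) and Ptpn2 (-0.25, adjusted p = 0.0176). Over all genes 13.7% fell with the block, so this count is near the background. Without number 1, 0 of the 16 rose, 1 fell on group only and 4 fell with the block, where 2.77% and 18.4% of all genes fell.

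Of 25 tested genes that detect nucleic acids or drive interferon transcription, 1 rose on group only, the cytosolic DNA exonuclease gene Trex1. Trex1 had 4.08, 4.33, 6.83, 2.99 and 3.72 FPKM with doxorubicin, against 1.08, 2.25, 1.69, 1.68 and 2.28 FPKM in medium, with no overlap (0.93, SE 0.18, limma adjusted p = 0.0383). With the block 3 rose (Trex1, Tlr8 and Samhd1) and 3 fell (Irf8, Ikbke and Irak1), where 7.81% of all genes rose and 13.7% fell, so the count that fell is near the background. Cgas (-0.04), Sting1 (0.01) and Irf3 (-0.18) did not pass in either fit, and Irf3 fell without number 1 (-0.25, limma adjusted p = 0.0368). Without number 1 Trex1 stood at 0.84 (adjusted p = 0.0344). In that setting 1 of the 25 rose and 1 fell on group only, where 2.87% and 2.77% of all genes did. With the block added, 4 rose and 4 fell, where 10.2% and 18.4% of all genes did. Of 39 other interferon-induced genes tested, 1 rose on group only, the chemokine gene Cxcl10, and 11 rose and 0 fell with the block, against the same 7.81% and 13.7%, with a median of 0.18. Without number 1, 8 of the 39 rose and 0 fell on group only, where 2.87% of all genes rose and 2.77% fell. With the block added, 13 rose and 1 fell, where 10.2% of all genes rose and 18.4% fell. The median of the 39 was then 0.14. Cxcl10 had 1.52, 1.49, 2.24, 1.45 and 1.96 FPKM with doxorubicin, against 0.849, 0.659, 0.882, 0.698 and 0.752 FPKM in medium. Its groups did not overlap (0.62, SE 0.09, limma adjusted p = 0.0154), and leaving out single libraries took the adjusted p as high as 0.0581, against 0.123 for Trex1. Cxcl10 averaged 0.768 FPKM in medium and 1.73 FPKM with doxorubicin, so it met the filter only through the doxorubicin group. In the fit with no filter on low values it also rose (limma adjusted p = 0.0296). Ifi203, among the 11, met the filter in the same way (0.925 FPKM in medium, 1.37 FPKM with doxorubicin). So did Tlr8 (0.855 FPKM in medium, 1.30 FPKM with doxorubicin). Ifi27l2a (0.66), Pml (0.40) and Ccl5 (0.75) were among those that rose with the block and not on group only, and without number 1 these 3 passed without the block too (adjusted p = 0.00883, 0.0394 and 0.0313).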

How the data were processed

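The authors deposited FPKM values (fragments scaled to transcript length and library size) for 22186 genes in 10 libraries, on GRCm39 per the submitters' processing notes. Per the labels' protocols, poly(A) RNA was enriched on oligo(dT) beads. The sources used here name no aligner, quantifier or strand setting. Steps of whole reads could not be seen among low values, so depth is unknown and no counting interval was computed. Columns were matched to libraries by library name.

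The 9869 genes averaging 1 FPKM or more were tested on log2(FPKM + 1) with limma 3.58.1 (R 4.3.3, mean-variance trend, two-sided, Benjamini-Hochberg over all genes tested, adjusted p of 0.05), a scale that understates changes of low genes. The fit was tested on simulated data with noise independent between libraries. Changes there were larger than that of any member tested and were set only in well expressed genes. The simulation therefore does not cover small changes or low genes. Deviations of libraries with the same number from their group means correlated at 0.524 to 0.794, all above 0.1, so the numbers in the titles were used as a block. Libraries of numbers 2 and 3 (0.589 and 0.692) and of 4 and 5 (0.509 and 0.512) correlated about as closely across numbers, so the values do not single out each number. Per-library FPKM was given for members past the threshold in either fit, STAT and IRF factors, receptor chains and the most abundant member of each role. Up to 4 genes past the threshold were named per pathway list, plus Irf3, Sting1, Cgas, Ifnb1 and 1 more that is not reported here. Promoters were matched by symbol to RefSeq (GRCm38.p6). Members, roles and lists were chosen with earlier results of these data known.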

Additional observations from a re-analysis of the deposited data

Results flagged for a closer look

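Within each group of 5 libraries, the distance of the highest or lowest library from its nearest neighbour was set against the range. Of 92 groups (46 members above 0, in doxorubicin and in medium), 24 held a library farther out than the 95% critical value of 0.71. Chance flags about 1 in 20 of independent groups, but these groups share 10 libraries, and the rate over all genes was not computed. By another measure, medium 1 lay below medium 2 to 5 for 48.6% of all genes tested and above them for 30.4%. Among the 35 members tested it lay below for 23 and above for 8. Its median deviation was -0.61 over those members and -0.10 over all genes. Medium 1 was the flagged library in most of the 24 groups, 14 times low and 4 times high.

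Doxorubicin 1 was far below the others for Oas2 (1.83 FPKM), Rtp4 (4.29 FPKM) and Adar (13.3 FPKM), and far above them for Rsad2 (8.14 FPKM) and Trim25 (64.1 FPKM). Doxorubicin 2 was low for Ifnar1 (13.6 FPKM).

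Among antiviral effectors, medium 1 was low for Isg15 (0.717 FPKM), Oas1a (7.30 FPKM), Oas3 (2.57 FPKM), Cmpk2 (0.508 FPKM), Rtp4 (0.144 FPKM), Xaf1 (0.343 FPKM), Ifitm3 (17.7 FPKM), Adar (10.3 FPKM) and Nmi (4.20 FPKM). It was also low for Eif2ak2 (7.31 FPKM), Irf7 (1.67 FPKM), Irf9 (3.40 FPKM), Parp14 (0.872 FPKM) and Gbp7 (0.0471 FPKM). It was high for Isg20 (3.07 FPKM), Irf1 (8.46 FPKM), Trim25 (44.6 FPKM) and Ifnar1 (21.8 FPKM).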

How the results depend on the processing

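The member median stayed positive under every setting (0.08 to 0.37 with single libraries left out, lowest without medium 1). The count of members that rose did not hold still: against 2 in the fit on group only, it was 14 with the replicate block, 19 with 3 sets of numbers as the block, 19 with library quality weights, 8 without number 1 and 17 without number 1 with the block. It was 1 with a pseudocount of 0.1, 0 in the exact permutation test, and 0 to 4 with single libraries left out. With the block, it was 15, 8, 6 and 5 without numbers 2, 3, 4 and 5. Members that fell numbered 1 with 3 sets as the block (Ifnar1), 1 without number 1 with the block (Irf9) and 1 without number 2 with the block (Ifnar2), against 0 otherwise. The cause of these changes was not tested.

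Over all genes, 68 rose and 22 fell on group only. The counts were 771 and 1356 with the replicate block, 1205 and 1963 with 3 sets, 1379 and 2302 with weights, 283 and 273 without number 1, 1010 and 1817 without number 1 with the block, and 0 and 0 by permutation. With the block they were 727 and 822 without number 2, 430 and 870 without number 3, 264 and 373 without number 4, and 254 and 374 without number 5. Single libraries left out gave 15 to 136 that rose and 0 to 90 that fell. Without the filter, 8 members, 418 genes up and 654 down passed with the block, 7, 260 and 206 without number 1, and 11, 361 and 542 without number 1 with the block. The settings without a filter and with the block or without number 1, and the block fits without numbers 2 to 5, were chosen after seeing the data.

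Signs turned only for members near 0 or resting on medium 1, none past the threshold there. Nmi was 0.00 with median-ratio scaling and 0.06 without number 2 with the block. Irf1 was -0.01 without number 1, with or without the block, and -0.01 without number 5 with the block, where Stat2 was also -0.01. Irf9 was 0.03 without number 2 with the block. Dtx3l was 0.01 with scaling, with weights and without number 2 with the block. Ifi47, without a filter and without number 1, was -0.04 with and without the block. With single libraries left out, values ran from -0.10 to 0.37 for Oas1a, -0.09 to 0.58 for Oas2, -0.13 to 1.06 for Rtp4, -0.01 to 0.18 for Adar, -0.15 to 0.06 for Nmi, -0.09 to 0.08 for Irf1, -0.34 to 0.06 for Irf9, -0.01 to 0.08 for Stat2, -0.02 to 0.68 for Usp18, -0.05 to 0.04 for Dtx3l and -0.08 to 0.08 for Ifi47. Depth was unknown, so no limit of detection can be given for the members below 1 FPKM.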

Other observations

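Isg20, an exonuclease gene, ran against most members in the number 1 libraries. It had 2.34, 1.02, 1.16, 1.12 and 1.62 FPKM with doxorubicin, against 3.07, 1.04, 1.05, 0.602 and 0.877 FPKM in medium, with both number 1 values the highest of their group. Its difference on the log2 scale was -0.28 in number 1 and -0.01 in number 2, against 0.08, 0.40 and 0.48 in numbers 3, 4 and 5. With library quality weights it rose (0.42, limma adjusted p = 0.0126), and it did not pass the threshold on group only (0.13, adjusted p = 0.820).

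Sp100, a nuclear body protein gene, had a small difference in number 1, where the median of the members was largest. Its differences were 0.09 and -0.02 in numbers 1 and 2 and 0.52, 0.46 and 0.28 in numbers 3, 4 and 5. Its medium values stayed between 2.93 and 3.29 FPKM, number 1 included, and its doxorubicin values between 3.17 and 4.71 FPKM. It passed the threshold with the block once number 1 was left out (0.31, limma adjusted p = 0.0268).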
